A study of Arabidopsis thaliana with 12 samples.

Results

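The genes described here encode the RPD3-type histone deacetylases of *Arabidopsis*, the enzyme class that trichostatin A (TSA) inhibits. The 10 members are *HDA2* (AT5G26040), *HDA5* (AT5G61060), *HDA6* (AT5G63110), *HDA7* (AT5G35600), *HDA8* (AT1G08460), *HDA9* (AT3G44680), *HDA14* (AT4G33470), *HDA15* (AT3G18520), *HDA18* (AT5G61070) and *HDA19* (AT4G38130). They were taken by gene identifier, by a rule that uses no measured value, from the 34262 genes of the count table. The RNA came from 5-day-old seedlings of 2 genotypes: wild-type Col-0, and WUS-GR, a Col-0 line in which the *UBQ10* promoter drives a fusion of mCherry, the glucocorticoid receptor domain and the stem cell regulator WUSCHEL (WUS). Seedlings of both genotypes were submerged for 2 h in dexamethasone (DEX), which moves the fusion protein into the nucleus, either alone or together with 1 µM TSA. This gave 4 groups of 3 biological replicates, called Col-0 DEX, WUS-GR DEX, Col-0 DEX+TSA and WUS-GR DEX+TSA, and 12 libraries. The labels give 25 µM DEX, and the study's methods give a lower concentration.

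All 4 groups received DEX, so the WUS effect is a comparison of WUS-GR with Col-0 in DEX and also holds any other difference between the lines. *UBQ10* is active in nearly all tissues, so the fusion was present far outside the stem cell niche. The study's methods describe the line as a single homozygous insertion line.

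RPD3-type deacetylases are zinc-dependent enzymes related to yeast Rpd3. They remove acetyl groups from lysines of histone tails, and reduced acetylation goes with lower transcription. They do not bind DNA themselves but are brought to genes by co-repressors such as TOPLESS, a partner of WUS, and by scaffold subunits of the SIN3 type. TSA is a hydroxamate that occupies the active site and binds its zinc ion, so it blocks the enzymes and not their mRNAs. Plants also have the HD2-type deacetylases, which are specific to plants, and the NAD-dependent sirtuins, which TSA does not inhibit.

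Total counts ran from 14810658 to 21578662 per library. *WUS* had 27 to 52 counts in Col-0 DEX, 38 to 42 in Col-0 DEX+TSA, 110757 to 118246 in WUS-GR DEX and 94664 to 142276 in WUS-GR DEX+TSA, as the labels require. Levels are given as CPM, the counts scaled to a common library size by TMM. TMM, the trimmed mean of M-values, assumes that most genes do not change. Its factors averaged 1.06 ± 0.0133 (SD, n = 3) in Col-0 DEX, 1.12 ± 0.0106 in WUS-GR DEX, 1.00 ± 0.0172 in Col-0 DEX+TSA and 0.845 ± 0.00408 in WUS-GR DEX+TSA, so the scaling itself differed between groups. The samples were labelled as whole seedlings. Of 5 root markers, the root hair gene *COBL9* had 0 counts in all libraries, *EXPA7* at most 1 count and the root tip gene *PLT1* at most 6 counts. *CASP1* and *SCR* carried the summed level of the root markers and did not move together. The mean of *CASP1* was 2.09 CPM in Col-0 DEX, 7.25 in WUS-GR DEX, 1.37 in Col-0 DEX+TSA and 14.7 in WUS-GR DEX+TSA, and that of *SCR* was 4.01, 2.95, 12.7 and 9.47 CPM. Their sum with the other 3 markers was 5.62 to 7.55 CPM in Col-0 DEX, 8.31 to 12.4 in WUS-GR DEX, 12.6 to 15.2 in Col-0 DEX+TSA and 20.8 to 26.2 in WUS-GR DEX+TSA. The summed level of 3 green shoot markers was 8132 to 11275, 10688 to 13833, 11461 to 14539 and 18981 to 19418 CPM in the same groups, although *RBCS1A* alone was lower in WUS-GR DEX than in Col-0 DEX (means of 1005 and 1188 CPM). Marker levels differed between the groups, and their part in the results below was not tested. In bulk RNA, fewer cells of a type and less RNA per cell cannot be told apart.

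The members lie on 4 chromosomes of the TAIR10.1 assembly. *HDA19* (chr4:17896278-17899509, minus strand), *HDA6* (chr5:25315506-25318347, minus), *HDA2* (chr5:9099152-9101682, minus), *HDA14* (chr4:16102595-16105550, minus), *HDA15* (chr3:6361159-6365705, plus) and *HDA8* (chr1:2672198-2674721, plus) shared no exonic stretch of 50 bases with another place in the genome. *HDA5* (chr5:24566783-24571072, minus) and *HDA18* (chr5:24571095-24574387, minus) are tandem neighbours, and 1.18% and 1.17% of their exonic 50-base windows occurred elsewhere. For *HDA9* (chr3:16226519-16230009, minus) this share was 22.1%. Its partial copies *HDA10* and *HDA17* shared 65.3% and 53.5% of theirs, so the count of *HDA9* is uncertain where reads could be split between copies. *HDA10* and *HDA17* held at most 1 count in any library. *HDA2* overlaps AT5G26030 on the opposite strand by 34 exonic bases, and *HDA6* overlaps AT5G63100 on the same strand by 28. *HDA7* (chr5:13770121-13771712, minus) shared no 50-base window either.

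The promoters of the pair of genes that rose most clearly with TSA and of the pair that fell most are shown because the TSA results turn on them. Each is the 250 bases before the annotated start of the gene in TAIR10.1 (RefSeq annotation), read 5′ to 3′ on the gene's own strand, which is the minus strand for all 4. Capitals mark matches, on either strand, to 1 of 6 motifs.
HDA6, chr5:25318348-25318597: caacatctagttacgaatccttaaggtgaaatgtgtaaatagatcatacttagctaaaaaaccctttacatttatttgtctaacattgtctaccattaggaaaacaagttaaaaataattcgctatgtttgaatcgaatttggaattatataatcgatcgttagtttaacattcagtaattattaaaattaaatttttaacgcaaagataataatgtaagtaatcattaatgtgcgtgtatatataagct
HDA19, chr4:17899510-17899759: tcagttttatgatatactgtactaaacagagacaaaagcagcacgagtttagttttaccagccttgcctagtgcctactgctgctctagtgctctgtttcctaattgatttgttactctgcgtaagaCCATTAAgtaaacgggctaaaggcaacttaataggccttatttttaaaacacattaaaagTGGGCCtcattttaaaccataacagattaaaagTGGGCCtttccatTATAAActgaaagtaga
HDA2, chr5:9101683-9101932: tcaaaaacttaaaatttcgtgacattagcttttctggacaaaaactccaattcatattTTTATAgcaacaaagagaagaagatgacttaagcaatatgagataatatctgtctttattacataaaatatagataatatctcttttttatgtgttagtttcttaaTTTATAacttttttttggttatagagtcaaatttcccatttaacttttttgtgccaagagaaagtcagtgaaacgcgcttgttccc
HDA9, chr3:16230010-16230259: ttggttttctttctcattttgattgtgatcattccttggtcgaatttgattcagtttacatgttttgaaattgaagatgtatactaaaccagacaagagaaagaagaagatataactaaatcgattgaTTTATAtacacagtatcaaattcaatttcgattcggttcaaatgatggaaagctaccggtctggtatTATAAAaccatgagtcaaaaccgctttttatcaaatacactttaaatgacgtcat
The motifs searched included 2 to which WUS is known to bind, spelled TTAATGG and, for the longer form of the G-box, TCACGTGA. The G-box itself is spelled CACGTG and lies within the latter. The others were the telo-box (spelled AAACCCTA), a form of the site II element (spelled TGGGCC) and a TATA box core (spelled TATAAA). Positions are those of the first printed base of a match, counted back from the start. *HDA19* held the WUS motif TTAATGG as its reverse complement at -123. This motif occurred in 6.99% of 27443 gene promoters of this length and, among the members, in *HDA18* and *HDA19*. *HDA19* also held the site II motif at -63 and -30 (13.7% of promoters, and no other member) and the TATA motif at -17. The TATA motif occurred in 47.3% of promoters. *HDA2* held it at -192 and -86, both as the reverse complement, *HDA9* at -122 (reverse complement) and -55, and *HDA8* also held it. *HDA6* held none of the 6 motifs, and no member held the G-box (6.49% of promoters), its longer form bound by WUS (0.474%) or the telo-box (4.49%). *HDA2* and *HDA9*, whose levels moved together, shared only the common TATA motif, at different positions. A match describes these letters in this window and is no binding site, and a missing match says nothing of any factor.

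In Col-0 DEX seedlings *HDA19*, which acts with TOPLESS in embryo patterning and in defence, was the member with the highest level per length. Its level was 54.9 ± 4.77 CPM per kb of exon (SD, n = 3), followed by *HDA15*, a repressor of light-induced greening, at 24.9 ± 1.44 and *HDA8* at 18.3 ± 0.588. The libraries of these 3 genes did not overlap with those of the next gene in the order. *HDA5* (10.9 CPM per kb), *HDA2* (9.63), *HDA6* (9.44) and *HDA14* (9.42) formed a run in which each overlapped its neighbour. *HDA9* had a lower mean, 7.52 ± 0.826 CPM per kb. Its libraries (6.63 to 8.26) overlapped those of *HDA2* (8.19 to 10.6) but not those of *HDA5*, *HDA6* and *HDA14*. Divided by coding length instead, *HDA8* came before *HDA15* in Col-0 DEX (38.4 against 35.7 CPM per coding kb) and in Col-0 DEX+TSA (32.6 against 30.8). On that scale *HDA6* came just below *HDA5* in Col-0 DEX (12.4), ahead of *HDA2*, and below both *HDA8* and *HDA15* in Col-0 DEX+TSA (24.4).

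Among the members with little RNA, *HDA7*, known from female gametophyte and embryo development, had 0 counts in all 12 libraries. *HDA18*, known from the patterning of the root epidermis, had 0 to 7 counts per library. At this depth neither passed the filter on low counts, so neither was compared between groups in the main fits. For *HDA7*, 3 counts is the limit that a count of 0 allows. The other 8 members passed the filter on low counts in every comparison.

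In the presence of TSA the order changed. Per kb of exon, *HDA6* stood sixth in Col-0 DEX and in WUS-GR DEX, was the third member in Col-0 DEX+TSA with 18.6 ± 2.12 CPM per kb, where it overlapped both *HDA15* (21.5 ± 0.712) and *HDA8* (15.6 ± 2.40), and was second in WUS-GR DEX+TSA with 30.4 ± 2.06 CPM per kb, above *HDA15* (17.6 ± 1.12) without overlap. *HDA19* was first in all 4 groups, with 44.9 ± 4.04 CPM per kb in WUS-GR DEX, 69.8 ± 5.78 in Col-0 DEX+TSA and 69.1 ± 2.90 in WUS-GR DEX+TSA. *HDA9* was last of the 8 in both groups with TSA, at 3.69 ± 0.364 and 3.14 ± 0.186 CPM per kb, just below *HDA2* at 4.45 ± 0.744 and 3.98 ± 0.319, and the libraries of the 2 genes overlapped in Col-0 DEX+TSA. In WUS-GR DEX *HDA14* (14.9 ± 1.50 CPM per kb) came right after *HDA15* and overlapped *HDA8* (12.8 ± 1.12), and *HDA5* (7.86 ± 0.271) was last. By coding length *HDA8* came before *HDA14* in WUS-GR DEX (26.9 against 18.3 CPM per coding kb) and in WUS-GR DEX+TSA (19.7 against 11.6).

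**Figure D1:**
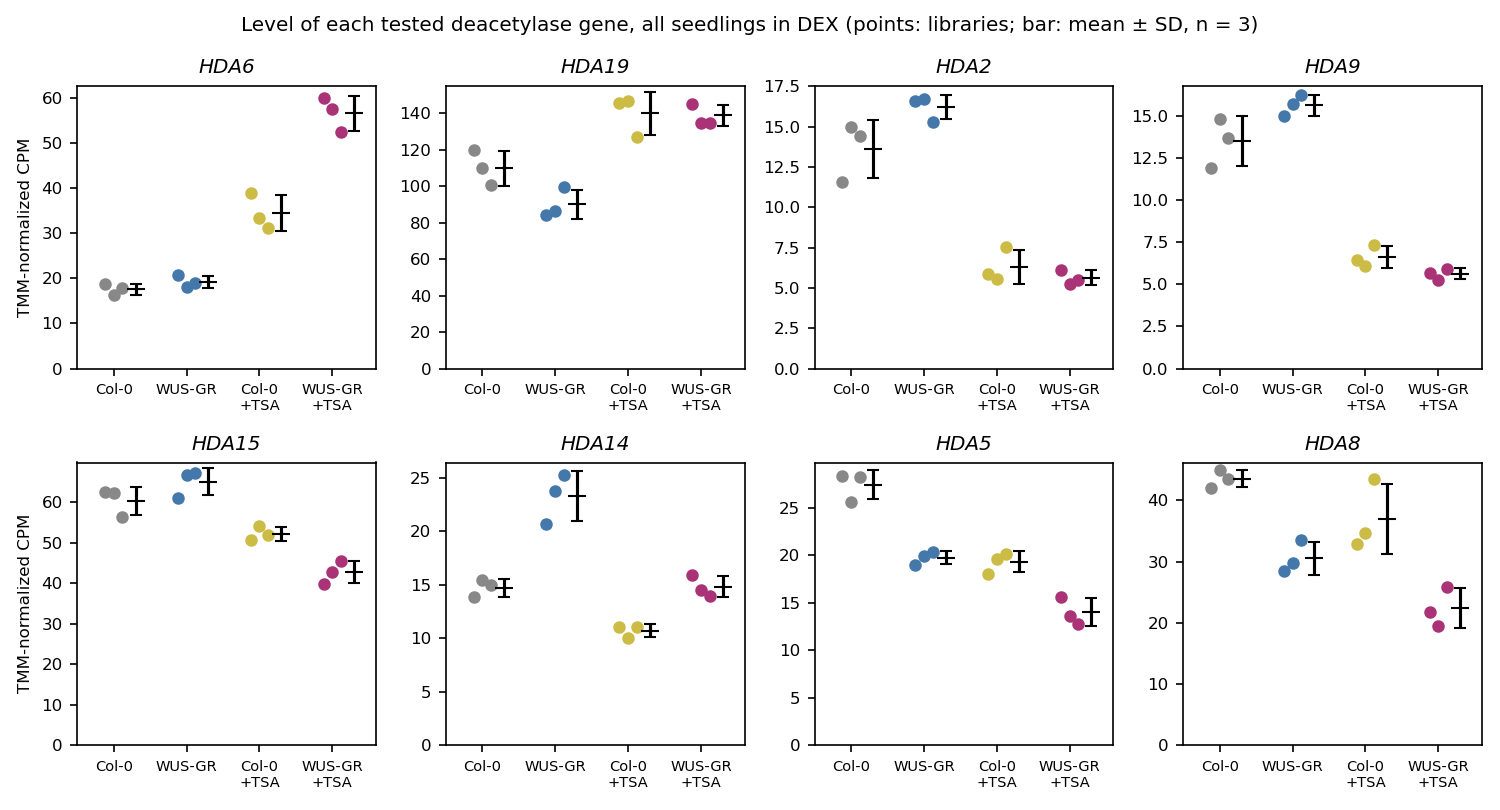
TMM-normalized CPM (y axis, from 0, a scale of its own in each panel) of the 8 tested deacetylase genes in the 4 groups. Points are libraries and the bar beside them is the mean ± SD (n = 3): *HDA6* is highest in WUS-GR DEX+TSA (52.5 to 60.0 CPM), and *HDA2* and *HDA9* are low in both groups with TSA (5.26 to 7.51 CPM).

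To see how the genes of the inhibited enzymes themselves responded, seedlings with TSA were compared with seedlings without it, in each genotype. Transcript levels of *HDA6* and *HDA19* rose with TSA in both genotypes, and those of *HDA2*, *HDA9*, *HDA5* and *HDA14* fell in both. *HDA8* and *HDA15* fell in WUS-GR, with no call in Col-0. In Col-0, 2 of the 8 tested members were higher and 4 lower at an edgeR adjusted p under 0.05. Calls were frequent, since 64.2% of all 17271 genes tested were called, 31.7% higher and 32.5% lower. In WUS-GR, 2 members were higher and 6 lower, while 73.7% of all 17079 genes were called, 35.6% higher and 38.1% lower. The median log2 fold change of the tested members was -0.34 in Col-0 and -0.57 in WUS-GR, against 0.00393 and -0.0304 for all genes tested. Adjusted p-values of genes are from edgeR's quasi-likelihood test over all genes. Overlap of libraries between groups is given here and below as a description. Its share over all genes was not counted, so it adds nothing to a call.

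*HDA6*, which silences transposons and surplus rRNA genes and takes part in flowering control, was the member that rose most. Its level was 18.7, 16.3 and 17.8 CPM in the 3 Col-0 DEX libraries and 39.0, 33.5 and 31.3 CPM in the 3 Col-0 DEX+TSA libraries. The groups did not overlap, and the log2 fold change was 0.98 (SE 0.11, edgeR adjusted p = 1.26e-05), a 1.98-fold higher level. In WUS-GR the level went from 20.7, 18.0 and 19.1 CPM to 60.0, 57.6 and 52.5 CPM, which was 2.90-fold higher (log2 1.54, SE 0.0892, edgeR adjusted p = 2.23e-08). Each WUS-GR DEX+TSA library lay above every other library. A larger absolute log2 fold change was found in 28.8% of all genes tested in Col-0 and in 17.3% in WUS-GR.

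*HDA19* started from the highest level and rose less. Its 3 libraries held 120, 110 and 101 CPM in Col-0 DEX and 146, 147 and 127 CPM in Col-0 DEX+TSA. The groups did not overlap, and the level was 1.28-fold higher (log2 0.35, SE 0.0976, edgeR adjusted p = 0.00770). In WUS-GR it went from 84.4, 86.5 and 99.4 CPM to 145, 135 and 135 CPM, 1.52-fold higher (log2 0.60, SE 0.0810, edgeR adjusted p = 3.05e-05). Scaling by library totals alone put the median of all genes tested in WUS-GR at -0.41 on the log2 scale and brought the rise of *HDA19* there to 0.22 (edgeR adjusted p = 0.0240) and that of *HDA6* to 1.15.

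*HDA2*, the class IV member and as such related to human HDAC11, fell most. Its level was 11.6, 15.0 and 14.4 CPM in Col-0 DEX and 5.86, 5.56 and 7.51 CPM in Col-0 DEX+TSA. The groups did not overlap, and the level was 2.16-fold lower (log2 -1.11, SE 0.16, edgeR adjusted p = 8.24e-05). In WUS-GR it went from 16.6, 16.7 and 15.3 CPM to 6.14, 5.26 and 5.52 CPM, 2.91-fold lower (log2 -1.54, SE 0.11, edgeR adjusted p = 1.20e-07).

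*HDA9*, which acts in flowering time and in growth at warm temperature, followed *HDA2* closely. Its levels were 11.9, 14.8 and 13.7 CPM in Col-0 DEX and 6.41, 6.07 and 7.32 CPM in Col-0 DEX+TSA, 2.03-fold lower (log2 -1.02, SE 0.14, edgeR adjusted p = 5.78e-05). In WUS-GR the levels were 15.0, 15.7 and 16.2 CPM without and 5.67, 5.26 and 5.92 CPM with TSA, 2.83-fold lower (log2 -1.50, SE 0.10, edgeR adjusted p = 1.05e-07). Groups with and without TSA were apart in both genotypes. In WUS-GR, 17.3% of all genes had a larger absolute log2 fold change than *HDA2* and 18.2% a larger one than *HDA9*; in Col-0 these shares were 24.3% and 27.4%.

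The falls of *HDA5*, *HDA14*, *HDA15* and *HDA8* were smaller. *HDA5*, a partner of *HDA6* in flowering control, went from 28.3, 25.6 and 28.2 CPM to 18.0, 19.6 and 20.1 CPM in Col-0 (log2 -0.50, SE 0.0970, edgeR adjusted p = 8.14e-04). In WUS-GR it went from 18.9, 19.9 and 20.3 CPM to 15.6, 13.6 and 12.7 CPM (log2 -0.51, SE 0.0988, edgeR adjusted p = 5.64e-04), so the size of its fall was nearly the same in both genotypes. *HDA14*, whose product is found in chloroplasts, went from 13.8, 15.4 and 15.0 CPM to 11.0, 9.99 and 11.0 CPM in Col-0 (log2 -0.46, SE 0.11, edgeR adjusted p = 0.00392). Its WUS-GR libraries went from 20.7, 23.8 and 25.3 CPM to 15.9, 14.5 and 13.9 CPM (log2 -0.67, SE 0.10, edgeR adjusted p = 7.37e-05). For both genes the libraries with and without TSA did not overlap.

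*HDA15* had 62.6, 62.3 and 56.4 CPM in Col-0 DEX and 50.7, 54.1 and 51.9 CPM in Col-0 DEX+TSA. These libraries did not overlap, but the difference was not past the threshold (log2 -0.20, SE 0.0868, edgeR adjusted p = 0.0575). Without Col-0 DEX replicate 3 it passed (edgeR adjusted p = 0.0438). In WUS-GR it went from 61.2, 66.7 and 67.3 CPM to 39.9, 42.8 and 45.4 CPM (log2 -0.63, SE 0.0782, edgeR adjusted p = 1.50e-05). *HDA8* had 42.1, 44.9 and 43.5 CPM in Col-0 DEX and 32.9, 34.6 and 43.5 CPM in Col-0 DEX+TSA, where replicate 3 overlapped the untreated libraries (log2 -0.23, SE 0.11, edgeR adjusted p = 0.0970). Without Col-0 DEX+TSA replicate 3 the value was -0.35 (edgeR adjusted p = 0.00989). In WUS-GR *HDA8* went from 28.4, 29.7 and 33.5 CPM to 21.7, 19.5 and 25.9 CPM, with no overlap (log2 -0.47, SE 0.10, edgeR adjusted p = 0.00137). With library totals alone both genes passed the threshold in Col-0 as well, and 2 members were higher and 6 lower.

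**Figure D2:**
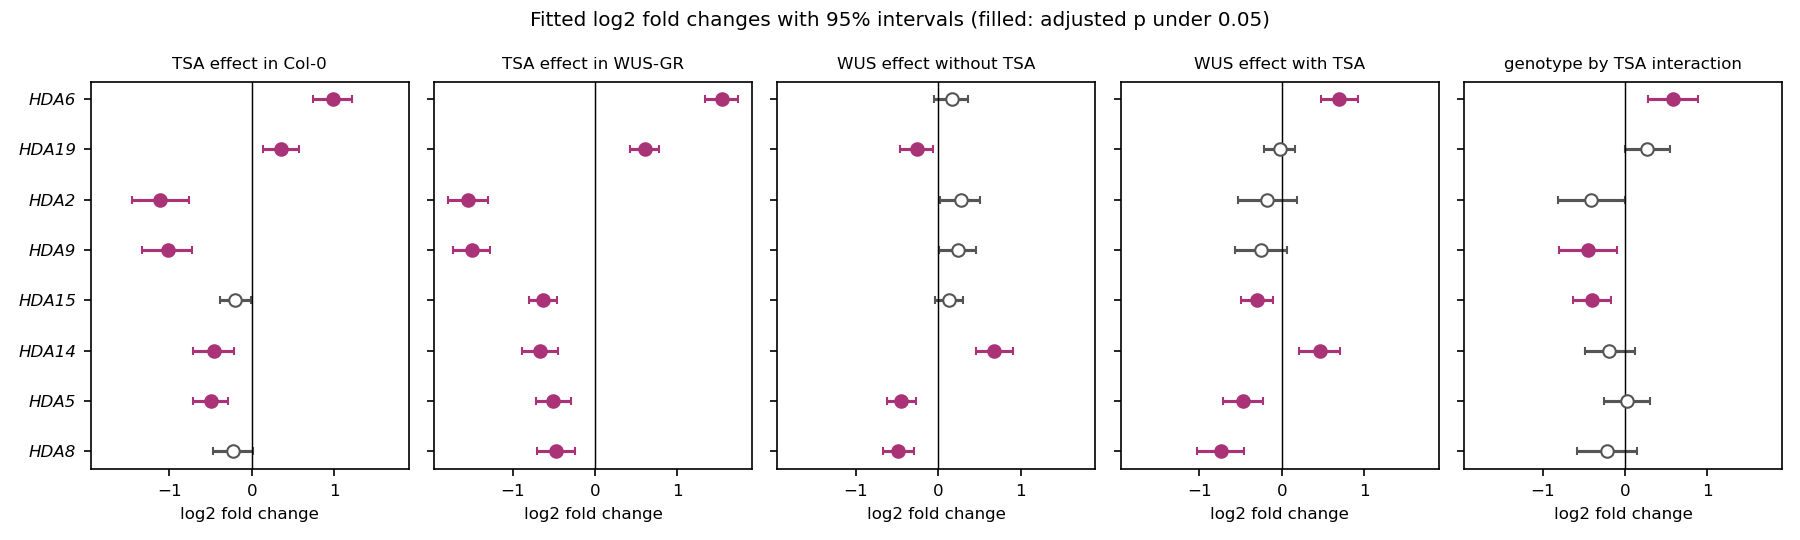
Fitted log2 fold change (x axis) of the 8 tested genes (rows) in the 4 comparisons and the interaction, with 95% intervals. Filled points have an edgeR adjusted p under 0.05: with TSA *HDA6* and *HDA19* lie above 0 and *HDA2*, *HDA9*, *HDA14* and *HDA5* below 0 in both genotypes, and *HDA6* has the largest interaction (0.58).

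To ask how the activated WUS fusion bore on these genes, the genotypes were set against each other. In the absence of TSA, *HDA14* was higher in WUS-GR and *HDA5*, *HDA8* and *HDA19* were lower, 1 higher and 3 lower of 8 tested. In this comparison 57.9% of all 17285 genes were called, 29.3% higher and 28.6% lower, and the median log2 fold change was 0.14 for the members and 0.0171 for all genes. From the levels above, *HDA14* was raised by 0.68 on the log2 scale (SE 0.0992, edgeR adjusted p = 2.48e-04). *HDA8* fell by 0.49 (SE 0.0832, edgeR adjusted p = 7.00e-04) and *HDA5* fell by 0.45 (SE 0.0816, edgeR adjusted p = 0.00100). The libraries of the 2 genotypes did not overlap for any of these 3 genes, a trait whose share over all genes was not counted. *HDA19* fell by 0.26 (SE 0.0904, edgeR adjusted p = 0.0301) without overlap of the libraries, but this call was weak. It was lost with library totals alone (edgeR adjusted p = 0.0837) and without Col-0 DEX replicate 1 or 2 or WUS-GR DEX replicate 1 or 2 (edgeR adjusted p = 0.0887, 0.0630, 0.124 and 0.101).

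*HDA2* and *HDA9* had values of 0.27 (SE 0.11, edgeR adjusted p = 0.0609) and 0.24 (SE 0.10, edgeR adjusted p = 0.0695). *HDA6* and *HDA15* had values of 0.16 (SE 0.0922, edgeR adjusted p = 0.168) and 0.13 (SE 0.0749, edgeR adjusted p = 0.158). None of these 4 was past the threshold. The libraries of the genotypes did not overlap for *HDA2* and *HDA9* either, which does not stand in for a call. With library totals alone *HDA2* and *HDA9* were called higher (log2 0.33 and 0.30, edgeR adjusted p = 0.0256 and 0.0282), and with *HDA19* lost the count turned to 3 members higher and 2 lower. For *HDA6* the 95% interval of the WUS effect without TSA was -0.0484 to 0.36.

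With TSA, *HDA6* and *HDA14* were higher in WUS-GR, and *HDA8*, *HDA5* and *HDA15* were lower, 2 higher and 3 lower of 8 tested. Of all 16873 genes 54.8% were called, 27.0% higher and 27.8% lower, and the median log2 fold change was -0.21 for the members and -0.0131 for all genes. *HDA6* was raised by 0.70 (SE 0.10, edgeR adjusted p = 1.01e-04), with 31.3 to 39.0 CPM in Col-0 DEX+TSA and 52.5 to 60.0 CPM in WUS-GR DEX+TSA. *HDA14* was raised by 0.46 (SE 0.11, edgeR adjusted p = 0.00427), with 9.99 to 11.0 CPM against 13.9 to 15.9 CPM. This call of *HDA14* was lost with library totals alone (log2 0.23, edgeR adjusted p = 0.0994), which put the median of all genes at -0.24.

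*HDA8* fell by 0.74 (SE 0.13, edgeR adjusted p = 4.34e-04), *HDA5* fell by 0.47 (SE 0.11, edgeR adjusted p = 0.00342) and *HDA15* fell by 0.30 (SE 0.0873, edgeR adjusted p = 0.0103). The genotypes did not overlap for these genes, and the call of *HDA15* was lost without WUS-GR DEX+TSA replicate 1 (edgeR adjusted p = 0.0628). *HDA19* had nearly equal levels in the 2 genotypes, with a log2 fold change of -0.0266 (SE 0.0871, edgeR adjusted p = 0.814) and a 95% interval of -0.22 to 0.16. *HDA2* had a value of -0.18 (SE 0.16, edgeR adjusted p = 0.383) and *HDA9* of -0.25 (SE 0.15, edgeR adjusted p = 0.169). The genotypes did not overlap for *HDA9* either, though it was not called. With library totals alone *HDA19*, *HDA2* and *HDA9* were also called lower, and 1 member was higher and 6 lower.

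The comparisons share groups: Col-0 DEX enters both the WUS effect without TSA and the TSA effect in Col-0, and the same holds for the other groups. Whether the TSA effect differed between the genotypes was therefore tested as an interaction in 1 fit of all 12 libraries. *HDA6* had a positive interaction, and *HDA9* and *HDA15* had negative ones, 1 higher and 2 lower of 8 tested. Of all 17915 genes tested 31.0% had an interaction past the threshold, 17.7% higher and 13.3% lower. The median was -0.20 for the members and 0.00301 for all genes.

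The interaction of *HDA6* was 0.58 on the log2 scale (SE 0.14, edgeR adjusted p = 0.00530), and 35.3% of all genes had a larger absolute value. It held in all 12 fits that left out 1 library (0.52 to 0.66). It was not past the threshold with library totals alone (0.25, edgeR adjusted p = 0.169), a scaling that put the median interaction of all genes at -0.32. *HDA15* had an interaction of -0.40 (SE 0.11, edgeR adjusted p = 0.0122), which held in all 12 fits that left out 1 library and with library totals alone (-0.72). *HDA9* had an interaction of -0.45 (SE 0.17, edgeR adjusted p = 0.0495). When single libraries were left out, 10 of the 12 fits lost this call (edgeR adjusted p up to 0.124), and it was kept only without Col-0 DEX replicate 2 or Col-0 DEX+TSA replicate 2.

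For the remaining members no interaction was past the threshold. *HDA2* had a value of -0.41 (SE 0.19, edgeR adjusted p = 0.123), *HDA19* of 0.27 (SE 0.13, edgeR adjusted p = 0.117), *HDA8* of -0.22 (SE 0.17, edgeR adjusted p = 0.345), *HDA14* of -0.19 (SE 0.14, edgeR adjusted p = 0.350) and *HDA5* of 0.0177 (SE 0.13, edgeR adjusted p = 0.935). With library totals alone, *HDA2*, *HDA8* and *HDA14* joined *HDA9* and *HDA15* as lower and none was higher, and *HDA19* and *HDA5* changed sign (-0.0528 and -0.31).

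The make-up of the deacetylase transcripts shifted more than their sum. The summed level of the 10 genes was 145 ± 4.46 CPM per kb (SD, n = 3) in Col-0 DEX, 138 ± 7.42 in WUS-GR DEX, 148 ± 3.53 in Col-0 DEX+TSA and 149 ± 4.66 in WUS-GR DEX+TSA. With library totals alone it was 153 ± 6.51, 154 ± 7.89, 148 ± 5.97 and 126 ± 3.49 CPM per kb, so whether the sum fell in WUS-GR with TSA depended on the scaling. Shares of this sum do not depend on it. *HDA6* and *HDA19* together made up 44.3% ± 2.36 (SD, n = 3) in Col-0 DEX, 40.1% ± 1.22 in WUS-GR DEX, 59.6% ± 3.64 in Col-0 DEX+TSA and 66.9% ± 1.44 in WUS-GR DEX+TSA. These 2 genes were put together after their values were seen, so the shares are a description.

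*HDA6* alone went from 6.51% to 12.5% of the sum in Col-0 and from 7.52% to 20.4% in WUS-GR. *HDA19* went from 37.8% to 47.0% and from 32.5% to 46.4%. In the other direction, *HDA2* went from 6.65% to 3.01% in Col-0 and from 8.31% to 2.67% in WUS-GR, and *HDA9* from 5.19% to 2.49% and from 6.34% to 2.11%.

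**Figure D3:**
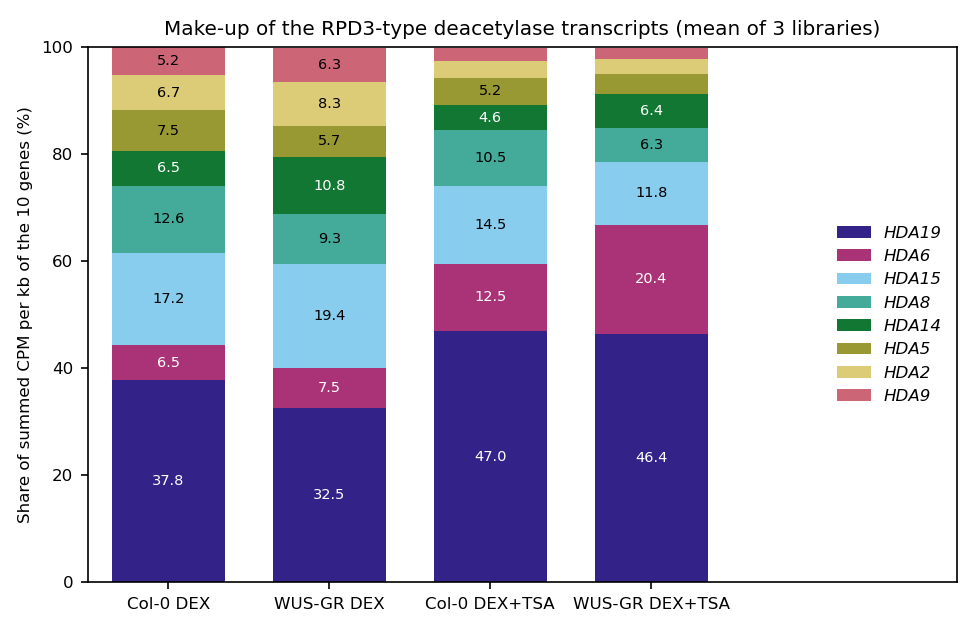
Mean share (%, y axis from 0, 3 libraries per group) of each gene in the summed CPM per kb of the 10 deacetylase genes. *HDA19* and *HDA6*, at the bottom of the stacks, hold 44.3% in Col-0 DEX and 66.9% in WUS-GR DEX+TSA. *HDA18* and *HDA7* hold too little to be drawn.

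Across the 12 libraries *HDA2* and *HDA9* had nearly the same profile, with a Pearson correlation of log2 CPM (offset 1) of 0.993. Of the 28 pairs of tested members this was the only one above 0.9, and 5 pairs lay below -0.9, among them *HDA6* with *HDA15* (-0.948), *HDA2* with *HDA19* (-0.935) and *HDA2* with *HDA6* (-0.917). *HDA6* with *HDA19* had a value of 0.785. The points share the 4 groups and the library scaling, so these values describe group differences more than separate observations, and they carry no p. For *HDA19* the most similar profiles of 17914 other genes were those of AT1G63850 (0.976), *SLP1* (0.975) and *SCPL49* (0.974), and 603 genes lay above 0.9. For *HDA6* they were those of AT1G55270 (0.996), *RHM1* (0.996) and *CYP706A5* (0.993), and 1414 genes lay above 0.9.

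**Figure D4:**
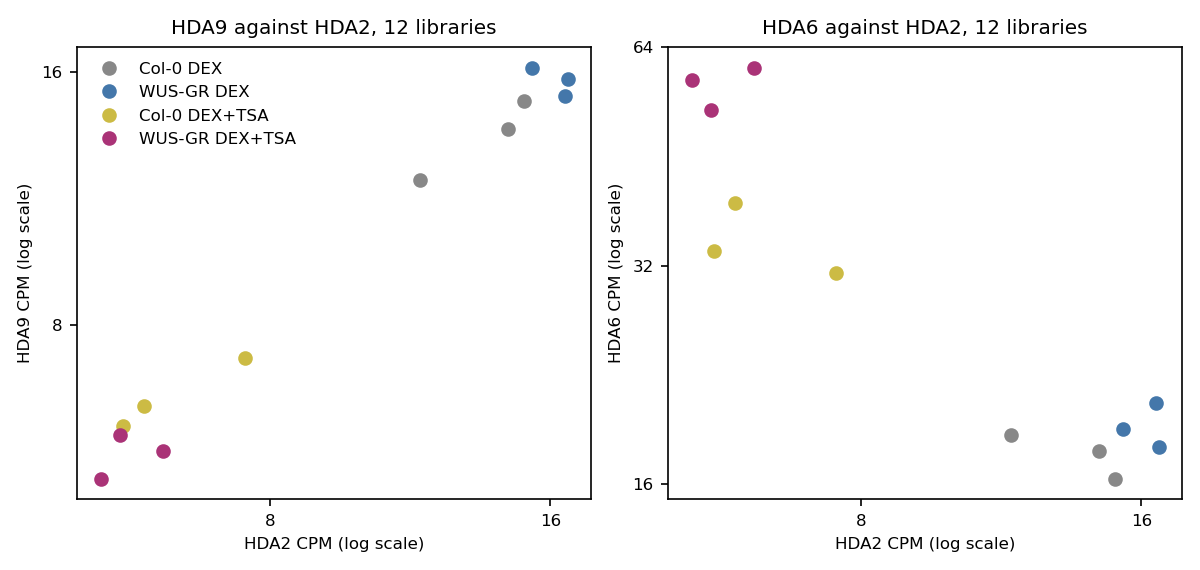
CPM of *HDA9* (left, y axis) and *HDA6* (right, y axis) against *HDA2* (x axis), both on log scales, for the 12 libraries, colored by group. *HDA9* runs along with *HDA2* (r = 0.993), while *HDA6* runs opposite to it (r = -0.917), and libraries with and without TSA lie apart in both panels.

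Transcripts of genes whose products work with these enzymes were read out of the same fits, as counts and medians. No protein was measured. A gene said to have risen or fallen most is the one with the largest change among those past the threshold. The counts stand against frequent calls among all genes tested, 29.3% higher and 28.6% lower for the WUS effect without TSA and 27.0% and 27.8% with TSA. For TSA these shares were 31.7% and 32.5% in Col-0 and 35.6% and 38.1% in WUS-GR, and for the interaction 17.7% and 13.3%. Of 20 listed subunits of deacetylase complexes 17 were found in the reference. In WUS-GR without TSA 10 of 17 were higher and 1 lower, with a median log2 fold change of 0.35. With TSA 9 of 16 were higher and 1 lower (median 0.25), but with library totals alone 2 were higher and 2 lower. *MSI5*, which encodes a histone-binding WD40 protein, rose most without TSA (0.75, SE 0.25, edgeR adjusted p = 0.0274). *SNL2*, which encodes a SIN3-like scaffold, rose most with TSA (0.90, SE 0.0988, edgeR adjusted p = 1.01e-05). The counts of *MSI5* were low, 21 to 32 in Col-0 DEX and 35 to 55 in WUS-GR DEX. *SAP18*, which encodes a SIN3-associated protein, was the 1 that fell in both (-0.51, SE 0.10, edgeR adjusted p = 0.00175, and -0.75, SE 0.12, edgeR adjusted p = 2.10e-04).

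With TSA against without, 5 of 16 subunits were higher and 2 lower in Col-0 (median -0.0367), and 6 of 17 were higher and 4 lower in WUS-GR (median -0.0475). This balance depended on the scaling. Library totals alone gave 4 higher and 4 lower in Col-0 (median -0.12), and 4 higher and 10 lower in WUS-GR (median -0.43). *LDL1*, a lysine-specific demethylase homolog, rose most in both (1.63, SE 0.21, edgeR adjusted p = 3.42e-05, and 1.52, SE 0.13, edgeR adjusted p = 5.62e-07). Its relative *FLD*, a flowering regulator that acts with *HDA6*, fell most in Col-0 (-0.53, SE 0.15, edgeR adjusted p = 0.00829), and the SIN3-like *SNL4* fell most in WUS-GR (-0.93, SE 0.0820, edgeR adjusted p = 8.07e-07). *SNL4* also had the lowest interaction of the list (-0.53, SE 0.12, edgeR adjusted p = 0.00344) and *SNL6* the highest (0.73, SE 0.13, edgeR adjusted p = 7.23e-04), the 2 that passed. Library totals alone gave 1 higher and 6 lower interactions in this list.

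Of the 8 co-repressors that recruit deacetylases, 6 were higher and 2 lower in WUS-GR without TSA (median 0.42), and 5 were higher and 1 lower with TSA (median 0.40). The TOPLESS-related gene *TPR3* rose most in both (1.95, SE 0.12, edgeR adjusted p = 9.11e-07, and 1.96, SE 0.0949, edgeR adjusted p = 1.39e-08). *TPL*, which encodes TOPLESS, fell most without TSA (-0.30, SE 0.0794, edgeR adjusted p = 0.00949), and *LUH*, a LEUNIG homolog, fell most with it (-0.32, SE 0.0962, edgeR adjusted p = 0.0144). In response to TSA, 5 were higher and 1 lower in Col-0 (median 0.57) and 4 higher and 2 lower in WUS-GR (median 0.28, or -0.10 with library totals alone). *TPR4* rose most in both (0.90, SE 0.0986, edgeR adjusted p = 1.12e-05, and 0.89, SE 0.0832, edgeR adjusted p = 1.33e-06). The adaptor *SEU* fell most in Col-0 (-0.70, SE 0.12, edgeR adjusted p = 3.45e-04) and *LUH* in WUS-GR (-0.77, SE 0.0851, edgeR adjusted p = 5.32e-06). Their interactions were 0.43 (SE 0.15, edgeR adjusted p = 0.0424) and -0.56 (SE 0.14, edgeR adjusted p = 0.00680), and 2 of the list passed in each direction. Library totals alone gave 0 higher and 4 lower.

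The list of other deacetylases held 6 genes of the HD2 and sirtuin types. In WUS-GR without TSA 1 was higher and 3 lower (median -0.33): the sirtuin gene *SRT1* rose most (1.19, SE 0.20, edgeR adjusted p = 5.87e-04) and the HD2-type *HDT3* fell most (-0.74, SE 0.0701, edgeR adjusted p = 1.35e-05). With TSA 1 was higher, *HDT4* (0.43, SE 0.17, edgeR adjusted p = 0.0472), and 1 lower, *HDT1* (-0.50, SE 0.15, edgeR adjusted p = 0.0131), with a median of -0.0361. Library totals alone gave 0 higher and 3 lower there. In response to TSA *HDT3* rose most, by 0.40 in Col-0 (SE 0.0798, edgeR adjusted p = 9.31e-04) and 0.98 in WUS-GR (SE 0.0737, edgeR adjusted p = 1.94e-07), and the sirtuin gene *SRT2* fell most (-1.17, SE 0.16, edgeR adjusted p = 5.58e-05, and -1.11, SE 0.14, edgeR adjusted p = 1.90e-05). Here 1 was higher and 2 lower in Col-0 and 3 higher and 3 lower in WUS-GR, with medians of 0.00133 and -0.0703. Of the interactions 3 were higher and 0 lower, *HDT4* the highest (0.81, SE 0.26, edgeR adjusted p = 0.0269). Library totals alone turned these interactions to 1 higher and 2 lower, and their median from 0.31 to -0.0157.

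Histone acetyltransferases add the acetyl groups that the members remove. Of 12 listed genes 11 were tested, and with TSA 7 were lower and 2 higher in Col-0 (median -1.14), where 32.5% of all genes were lower. In WUS-GR 8 were lower and 2 higher (median -1.31), where 38.1% of all genes were lower. The CBP-like *HAC5* fell most in Col-0 (-1.61, SE 0.10, edgeR adjusted p = 1.72e-07) and the CBP-like *HAC12* in WUS-GR (-2.26, SE 0.10, edgeR adjusted p = 3.13e-09). *HAF2*, a TAF1-type gene, rose most in Col-0 (1.41, SE 0.33, edgeR adjusted p = 0.00303), and *HAG2* rose most in WUS-GR (1.09, SE 0.12, edgeR adjusted p = 4.23e-06). The counts of *HAF2* were low, 10 to 15 in Col-0 DEX and 22 to 47 in Col-0 DEX+TSA. They were 19 to 31 in WUS-GR DEX and 13 to 21 in WUS-GR DEX+TSA.

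In the WUS effect, 1 acetyltransferase gene was higher and 2 lower without TSA (median 0.0688) and 1 higher and 2 lower with it (median -0.22). Without TSA these were led by *HAF2* (0.75, SE 0.29, edgeR adjusted p = 0.0479) and the Elongator subunit gene *HAG3* (-0.46, SE 0.0850, edgeR adjusted p = 0.00119). The call of *HAF2* was lost with DESeq2 size factors (0 higher and 2 lower), and library totals alone gave 2 higher and 1 lower. With TSA they were led by *HAF1* (0.75, SE 0.11, edgeR adjusted p = 8.55e-05) and *HAC12* (-0.80, SE 0.11, edgeR adjusted p = 7.34e-05), and 1 was higher and 7 lower with library totals alone. Of the interactions 2 were higher and 2 lower, with *HAG2* at 0.68 (SE 0.20, edgeR adjusted p = 0.0185) and *HAF2* at -1.51 (SE 0.45, edgeR adjusted p = 0.0178). Library totals alone gave 0 higher and 7 lower interactions. No gene of these lists that was called under both scalings changed direction between them.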

How the data were processed

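RNA was sequenced as poly(A)-selected, directional libraries from 12 seedling samples. The deposited values are raw counts per gene: per the study's methods, the authors aligned reads to TAIR10 with HISAT2 2.1.0 and counted them with featureCounts 1.6.3, without normalization. The gene annotation, strand setting and handling of multiply mapped reads are not given in the sources used here, so counts of overlapping or copied genes are uncertain. Of 34262 identifiers, 32548 (95%) matched the TAIR10.1 annotation, which gave names, positions and exonic lengths. *AFR1*, *AFR2* and *PWR* were not matched and not used here.

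Groups came from the sample labels. Counts were tested with edgeR 4.0.16 (R 4.3.3) (two-sided quasi-likelihood F-test) after TMM scaling, filterByExpr (minimum count 10) and Benjamini-Hochberg adjustment over all genes tested, at 0.05. The 4 comparisons each used a fit of their 6 libraries without covariates, and the interaction a fit of all 12. The study's methods used DESeq2 with genotype, and with genotype, treatment and their interaction; DESeq2 1.42.0 was an alternative here. Other alternatives were DESeq2 size factors, library totals alone, nuclear genes only, no filter, at least 10 counts in every library, a replicate block, 1 fit of all 12 libraries, thresholds of 0.01 and 0.1, coding length, and leaving out each library. Only the sampling of these replicates enters the p-values. Replicates of a group differed by more than sampling noise (chi-square per degree of freedom 6.98 to 16.1, Pearson correlation of log2 CPM 0.989 to 0.995), so none was counted as a copy. Precision is set by 14810658 to 21578662 counts per library, and a count limit of 3 covers counting error only.

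Named were all 10 members, *HDA10* and *HDA17*, the largest called rise and fall of each companion list, the 3 genes most like *HDA19* (highest CPM) and *HDA6* (largest interaction), and *WUS*. The rule for the members names gene identifiers and uses no value, but the family and the lists were chosen with earlier results of these data known. All 12 count columns were used, and 0 were left out.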

Additional observations from a re-analysis of the deposited data

Results flagged for a closer look

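The TSA effect differed between the genotypes for 3 deacetylase genes by edgeR's interaction test over all 12 libraries, 3 of 8 tested, where 31.0% of all 17915 genes did. *HDA6* had a difference of 0.58 (log2 scale, adjusted p = 0.00530), and its TSA effect was 0.98 in Col-0 and 1.54 in WUS-GR. *HDA9* (-0.45, adjusted p = 0.0495) had -1.02 and -1.50, and its call was lost in 10 of 12 fits that each left out 1 library. *HDA15* (-0.40, adjusted p = 0.0122) had -0.20 and -0.63. With library totals alone the values were 0.25 (*HDA6*, adjusted p = 0.169), -0.78 (*HDA9*) and -0.72 (*HDA15*). Groups of 3 were not tested for outlying samples.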

How the results depend on the processing

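All members called for TSA in both genotypes kept their call and direction in every alternative that was run (*HDA6*, *HDA19*, *HDA2*, *HDA9*, *HDA5* and *HDA14* in both, *HDA8* and *HDA15* in WUS-GR). The scaling mattered most for the interaction: library totals alone gave 5 members called (0 higher and 5 lower) in place of 3 (1 higher and 2 lower), with 21.5% in place of 57.1% of all calls higher. Among all calls they gave 28.3% higher in place of 49.2% for the WUS effect with TSA, and 29.5% in place of 48.3% for TSA in WUS-GR. At an adjusted p under 0.01, 1 interaction was called.

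Signs changed only for values that were not called. The interaction of *HDA5* was -0.31 with library totals alone, -0.0159 with at least 10 counts in every library and -0.0825 to 0.0653 over fits that left out 1 library, and 5 of these were negative (-0.00449, -0.00199, -0.00935, -0.0425 and -0.0825). The interaction of *HDA19* was -0.0528 with library totals alone. The WUS effect with TSA of *HDA19* was -0.0919 to 0.00986 over such fits, 3 of them positive (0.00755, 0.00986 and 2.91e-04). The interaction of *HDA9* also missed the threshold without a filter (adjusted p = 0.0821) and by DESeq2 (0.0870). The causes were not tested.

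Leaving out 1 library gave 3 to 4 members called for the WUS effect without TSA (4 with all libraries), 4 to 5 with TSA (5), 6 to 7 for TSA in Col-0 (6), 8 in WUS-GR (8) and 2 to 3 for the interaction (3). Whether replicate numbers pair the samples was not settled. Over 18 same-numbered pairs the deviations correlated at -0.29 to 0.25, with 2 over 0.1. Between Col-0 DEX+TSA and WUS-GR DEX+TSA these values were small but positive (0.0955, 0.0637 and 0.0713). Differently numbered pairs were negative there, which adds nothing, since deviations from a mean of 3 replicates balance out. Between Col-0 DEX and WUS-GR DEX the same-numbered values were negative (-0.0331, -0.0233 and -0.29). A replicate block gave 3 members for the WUS effect without TSA, where *HDA19* was lost (adjusted p = 0.0710), and 5, 6, 8 and 3 in the other tests.

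Depth sets a limit for *HDA7* and *HDA18* alone. Counts of *HDA9* depend on how reads shared with *HDA10* and *HDA17* were assigned.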
